A study of Mus musculus with 4 samples.

Results

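The proteasome genes of mouse epididymal white fat were followed through 6 days of β3-adrenergic stimulation. These genes encode the subunits of the proteasome, the dedicated assembly factors of its regulatory particle and its activators. They were chosen by name: the single symbol of the probe set in the array's annotation had to be Psma, Psmb, Psmc, Psmd or Psme with a number, and each gene is represented by its brightest probe set over the 4 arrays. This gave 40 genes of 8251 with a single symbol, measured by 51 probe sets. Read literally, the rule gives 42, since Psmc3ip and Psme3ip1 begin the same way; their products are not proteasome components, and they are described apart. The genes were 7 α and 7 constitutive β subunits of the 20S core, the 3 inducible catalytic β subunits, 6 ATPases and 11 other subunits of the 19S regulatory particle, 3 assembly chaperones of that particle and 3 activators.

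Each of the 4 groups is 1 array of RNA pooled from male C57 BL6 mice aged 3 to 4 months. The groups are a control and mice treated with CL 316243 at 3 nmol/hr during 1, 3 or 6 days; the compound selectively stimulates the β3-adrenergic receptor, which fat cells carry. How many mice made up a pool, how the control mice were treated and the route of dosing were not given in the sources used here. With 1 array per group and no replicates, no difference could be checked across samples, and p-values were not computed. The precision is limited by the number of arrays.

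The proteasome is the barrel-shaped protease that degrades proteins tagged with ubiquitin. Its 20S core has outer rings of α subunits and inner rings of β subunits, of which Psmb5, Psmb6 and Psmb7 carry the catalytic sites. The 19S particle docks on the core, recognises ubiquitin chains and unfolds substrates with its ring of ATPases. Interferon-γ and other immune signals induce Psmb8, Psmb9 and Psmb10, which take the places of Psmb5, Psmb6 and Psmb7 in newly assembled cores. The resulting immunoproteasome, common in leukocytes, trims peptides for presentation on MHC class I molecules. In brown fat cells, proteasomes made under the transcription factor Nfe2l1 are known to be needed for thermogenic adaptation.

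The promoters of 5 of these genes are shown as examples. Psmb9 and Psmb8 were the members that fell, and Psmb5 is the constitutive partner of Psmb8. Psme1 is an interferon-inducible activator and Psme4 an activator that rose. Psma1, the member that rose most over control, is not shown, and its window holds none of the motifs below. Each window runs 5′ to 3′ on the gene's strand, from 250 bases before to 50 bases after the start in RefSeq on GRCm38.p6. Capitals mark a match, on either strand, to one of 3 motifs: TGACNNNGC, the core of the antioxidant response element, GAAANNGAA, from the interferon-stimulated response element, and TTCNNNGAA, the interferon-γ activated site. The windows are chr17:34187281-34187580 on the minus strand for Psmb9, chr17:34197945-34198244 on the plus strand for Psmb8, chr14:54617946-54618245 on the minus strand for Psmb5, chr14:55578244-55578543 on the plus strand for Psme1 and chr11:30771525-30771824 on the plus strand for Psme4.
Psmb9: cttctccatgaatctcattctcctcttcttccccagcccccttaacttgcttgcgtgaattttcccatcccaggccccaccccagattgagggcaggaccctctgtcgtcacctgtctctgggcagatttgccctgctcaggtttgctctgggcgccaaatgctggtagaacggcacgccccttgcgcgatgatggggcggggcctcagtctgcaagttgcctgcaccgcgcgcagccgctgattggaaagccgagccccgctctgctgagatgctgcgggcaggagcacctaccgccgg
Psmb8: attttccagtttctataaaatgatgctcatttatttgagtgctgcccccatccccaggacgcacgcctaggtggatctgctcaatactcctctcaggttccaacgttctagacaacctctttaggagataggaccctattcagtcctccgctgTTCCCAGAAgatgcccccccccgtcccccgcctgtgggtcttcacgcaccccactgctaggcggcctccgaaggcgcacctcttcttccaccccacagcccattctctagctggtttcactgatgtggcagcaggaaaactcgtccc
Psmb5: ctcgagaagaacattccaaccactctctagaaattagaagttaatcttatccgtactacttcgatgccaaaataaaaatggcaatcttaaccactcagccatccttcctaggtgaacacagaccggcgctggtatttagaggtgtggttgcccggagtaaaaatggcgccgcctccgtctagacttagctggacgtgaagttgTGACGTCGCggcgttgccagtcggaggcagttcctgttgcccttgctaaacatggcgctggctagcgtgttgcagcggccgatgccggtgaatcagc
Psme1: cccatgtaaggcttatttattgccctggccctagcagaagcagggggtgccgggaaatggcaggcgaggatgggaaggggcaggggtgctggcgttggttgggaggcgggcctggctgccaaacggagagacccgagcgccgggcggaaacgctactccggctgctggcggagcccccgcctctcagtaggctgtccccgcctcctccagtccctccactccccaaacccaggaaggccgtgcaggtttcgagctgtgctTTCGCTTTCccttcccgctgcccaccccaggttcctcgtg
Psme4: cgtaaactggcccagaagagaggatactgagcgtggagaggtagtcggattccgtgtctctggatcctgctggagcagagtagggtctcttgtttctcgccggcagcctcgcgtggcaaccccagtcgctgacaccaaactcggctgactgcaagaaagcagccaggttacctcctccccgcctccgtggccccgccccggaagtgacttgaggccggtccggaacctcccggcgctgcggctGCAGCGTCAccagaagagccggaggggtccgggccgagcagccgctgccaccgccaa

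The Psmb8 window holds 1 interferon-γ activated site, which begins 97 bases before the start, and the Psmb9 window holds none of the 3 motifs. The antioxidant response core begins 47 bases before the start of Psmb5 and 7 bases before that of Psme4. In Psme1 the interferon-stimulated match lies just after the start. Of the 40 genes, 34 had a promoter in the RefSeq table, with 36 windows in all. The antioxidant response core was in 16.7% of these windows and in 12.4% of the 32851 windows of all genes. The interferon-stimulated core was in 16.7% against 8.56%, and the interferon-γ activated site in 5.56%, those of Psmb8 and Psmd2, against 8.30%. Such a match is a description of letters and not a site of binding.

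Intensities are the deposited linear values, scaled to a common mean. Values under a floor of 173, the 40th percentile, were raised to it before log2 changes were taken. A gene is said to have risen or fallen when it differed by at least 1.5-fold, and 2-fold counts are given beside. Of the 40 genes, 39 exceeded the floor on 1 array or more and 38 on all 4; these were compared with the 6269 genes of the whole array above the floor on at least 1 array. Psmc4, an ATPase, passed only through 186 at day 1 and 201 at day 3. Psmd2, a scaffold subunit of the 19S base, was at 77, 91, -9 and 19 on the control, day 1, day 3 and day 6 arrays and has no measured level. The error of a log2 change, estimated from 518 genes with a pair of probe sets, was 0.34 when day 1 was set against control and 0.27 for days 3 and 6. It measures how far probe sets of the same gene disagree on the same arrays. Error shared by a whole array and the spread between mice or pools are not in it.

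Most of the proteasome genes were within 1.5-fold of control at day 1. Of 39 members, 0 rose and 2 fell, against 16.0% of all genes that were at least 1.5-fold higher and 18.4% that were at least 1.5-fold lower. At 2-fold the members' counts were 0 and 1, against 7.51% and 8.36%. The median size of a log2 change was 0.19 for the members and 0.38 for all genes. The signed medians were 0.08 and -0.02. Members are bright on these arrays; among the 2943 genes with a mean intensity of at least 1000, a background chosen after the values were seen, 15.5% were higher and 19.9% lower, against 0 and 1 of the 36 members that bright.

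At day 3, 2 members rose and 0 fell, where 9.94% and 10.6% of all genes did. No member passed 2-fold, against 3.80% of genes upward and 3.25% downward. At day 6, 3 members rose and 0 fell, against 7.93% and 7.83%, and 1 passed 2-fold upward and 0 downward, against 1.72% and 1.63%. The median log2 change of the members was 0.03 at day 3 and 0.00 at day 6, where that of all genes was 0.00 on both days. The median size was 0.17 and 0.16, where all genes had 0.27 and 0.24. These 3 comparisons share the control array.

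**Figure D1:**
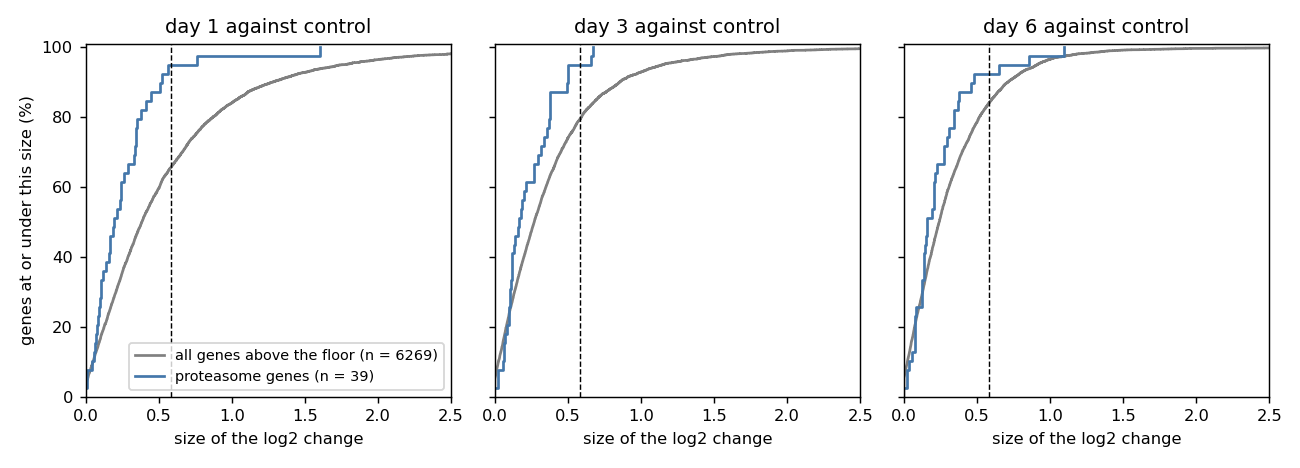
Share of genes, in percent, whose log2 change against control is at or under the size on the horizontal axis, for the 39 proteasome genes above the floor (blue) and the 6269 genes of the array above the floor (grey); the dashed line is 1.5-fold. The proteasome curve lies to the left of the curve of all genes over most of its length, with medians of 0.19 against 0.38 at day 1, when 37 of 39 members were within 1.5-fold.

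The 3 inducible catalytic subunits were the group with the lowest median on the day 1 array. Psmb9, the inducible β1 subunit, had an intensity of 1263 in control, 416 at day 1, 895 at day 3 and 1157 at day 6. Its day 1 value is the lowest and 3.04-fold below control, the largest change of any member in any comparison with control. By day 3 the gap to control was 1.41-fold, and by day 6 1.09-fold. Psmb8, the inducible β5 subunit, was at 3305, 1952, 2540 and 2366 on the same arrays. It fell 1.69-fold at day 1, and its values of days 3 and 6 lay 1.30-fold and 1.40-fold below control. Psmb10, the inducible β2 subunit, was at 2930, 2482, 2766 and 2859, within 1.5-fold of control throughout, and was also lowest at day 1. Each gene has 1 probe set here, and in all 3 the control array was the highest. The medians of the group were -0.76, -0.38 and -0.13 on the log2 scale at days 1, 3 and 6.

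The constitutive partners of these subunits stayed within 1.5-fold of control. Psmb5, which carries the chymotrypsin-like site, was at 4073, 6034, 5076 and 4721 by its brighter probe set, 1.48-fold above control at day 1. Its dimmer probe set went the other way, from 431 to 332, so the direction for Psmb5 is uncertain. Psmb6, with the caspase-like site, was at 5039, 4484, 5467 and 5549. Psmb7, with the trypsin-like site, was at 5239, 5581, 6424 and 6775, by a probe set that the array marks as shared by a sequence family.

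The change of an inducible subunit minus that of its partner was negative in all 9 comparisons with control. All 9 share the 1 control array, so their signs are not independent. For Psmb8 minus Psmb5 it was -1.33 on the log2 scale at day 1, with an error of 0.49, and -0.70 at days 3 and 6, with an error of 0.38. With the mean of both Psmb5 probe sets these values became -0.85, -0.37 and -0.45. For Psmb9 minus Psmb6 the difference was -1.43 at day 1, -0.61 at day 3 and -0.27 at day 6, the last smaller than its error. For Psmb10 minus Psmb7 it was -0.33, -0.38 and -0.41, the first smaller than its error of 0.49 and the others about as large as theirs.

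**Figure D2:**
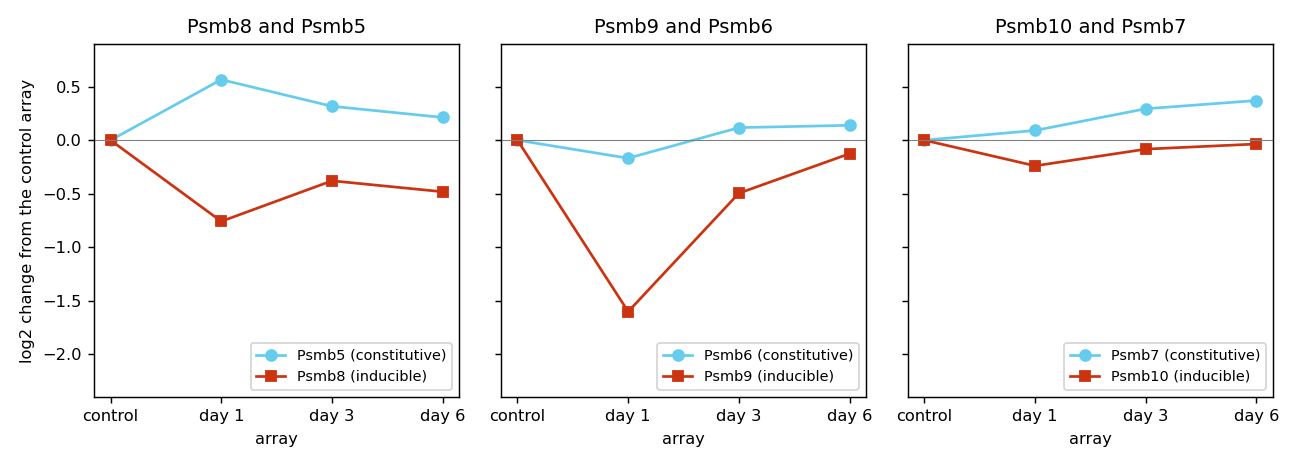
Log2 change of intensity from the control array at days 1, 3 and 6 for each inducible catalytic subunit (red squares) and the constitutive subunit whose place it takes (blue circles), 1 array per point. Psmb9 reaches -1.60 and Psmb8 -0.76 at day 1, while Psmb6 and Psmb5 lie at -0.17 and 0.57; Psmb10 and Psmb7 stay between -0.24 and 0.37.

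Marker genes of several cell types also differed between the arrays, and in bulk tissue fewer cells of a type and less RNA per cell cannot be told apart. The counts of markers below stand beside 16.0% of all genes that rose and 18.4% that fell at day 1. The summed intensity of 7 adipocyte markers was 131406 in control and 65799, 108691 and 137196 at days 1, 3 and 6, and Adipoq, a defining fat cell gene, was between 25374 and 55274. That of 9 macrophage markers was 28716, 77832, 73997 and 35131, and 7 of the 9 rose at day 1. That of 8 neutrophil markers was 3018, 71747, 4644 and 3345, and 5 rose and 2 fell at day 1. Of those that rose, Ly6g and Cxcr2 were above the floor on the day 1 array alone, so their direction was fixed by it. Ltf was above the floor only at day 6. S100a8 and S100a9 made up most of the day 1 sum, at 40305 and 26727, while Elane and Camp fell, from 593 to 292 and from 460 to 242. Of 6 B and plasma cell markers, 1 rose and 3 fell at day 1, and their sum was 20263, 7455, 10481 and 15594. Ighm made up most of that sum, at 18367, 5992, 8790 and 13667. Of 6 endothelial markers, 0 rose and 4 fell at day 1, with sums of 9160, 7274, 5862 and 9398. Of 10 T and NK cell markers, 3 were above the floor, with sums of 1429, 961, 1106 and 1009. Of these, only Thy1 was lowest at day 1, at 799, 349, 552 and 434. Cd4 was at 469, 426, 356 and 421, and Klrd1, near the floor, at 160, 187, 198 and 154. Cd3e, Cd3d, Cd3g and Cd8a were below the floor on every array. Lcn5, a lipocalin of the epididymis, was at 3321, 63, 7 and 8029 on the control, day 1, day 3 and day 6 arrays, and the 5 testis and epididymis markers summed to 4817, 1513, 1559 and 10514. Of 2 skeletal muscle markers above the floor, 1 rose and 1 fell at day 1, and their sum was 1835, 2487, 595 and 541. Acta1 rose, at 1492, 2379, 212 and 168, and Myh4 fell, at 343, 108, 383 and 373. The lowest Psmb8 and Psmb9 values thus stood on the array with the highest macrophage and neutrophil sums. The macrophage sum of day 3 was nearly as high. The skeletal muscle sum was also highest at day 1, through Acta1 and not Myh4. The same day 1 array had the lowest adipocyte, B and plasma cell, and testis and epididymis sums. The T and NK sum was also lowest there, through Thy1 and not Cd4 or Klrd1. The part of these cell types in the result was not tested.

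Between the treated arrays, Psmb9 rose 2.15-fold from day 1 to day 3 and was 2.78-fold higher at day 6 than at day 1. It was the only member that rose between days 1 and 3, against 16.4% of all genes, and 0 fell, against 14.3%. From day 3 to day 6 no member passed 1.5-fold in either direction, where 7.11% of genes rose and 7.80% fell. From day 1 to day 6, 2 members rose, Psmb9 and Psma1, against 20.8% of genes, and 0 fell, against 17.5%.

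Activators cap the core in place of the 19S particle. Psme1, the α subunit of the interferon-inducible PA28 activator, was at 5029, 3861, 5402 and 5311. Its day 1 value was the lowest, 1.30-fold below control, and did not pass 1.5-fold. Psme2, the β subunit of PA28, falls outside the rule because its probe sets also carry the symbol of the near copy Psme2b, from which it cannot be told apart. The brighter of its probe sets was at 4782, 3089, 6294 and 6116, that is 1.55-fold below control at day 1 and 2.04-fold higher at day 3 than at day 1. Psme3, which forms the nuclear PA28γ activator, was at 1069, 1363, 1158 and 1087, within 1.5-fold of control. Psme4, which encodes the activator PA200, was at 1307, 1859, 2085 and 2367, 1.42-fold above control at day 1. It rose 1.60-fold by day 3 and 1.81-fold by day 6, so that each treated array lay above the control.

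Among the α subunits of the core, whose amino-terminal tails form the gate, Psma1 changed most. It was at 1777, 2369, 2802 and 3788, and its ratio to control was 1.33 at day 1, 1.58 at day 3 and 2.13 at day 6, the latter 2 past the threshold. Psma5 had the highest log2 change of the group at day 1, 0.52, with intensities of 3175, 4555, 4134 and 3839. Psma3 had the lowest log2 change of the group at day 1, -0.07, with intensities of 13426, 12833, 12023 and 12332, by a probe set marked as shared by a sequence family. The other 4 (Psma2, Psma4, Psma6 and Psma7) were at most 1.30-fold from control on every day. The group's median log2 change was 0.26, 0.03 and -0.12 at days 1, 3 and 6.

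Of the constitutive β subunits without a catalytic site, Psmb3 was at 6738, 7251, 7648 and 10556 and rose 1.57-fold by day 6. The highest log2 change among them at day 1 was that of Psmb2, 0.33, with intensities of 6041, 7610, 5816 and 6913. The lowest was that of Psmb1, -0.14, with 5695, 5173, 5168 and 5108. Psmb4 was at most 1.16-fold from control, by a probe set marked as shared by a sequence family. The medians of all 7 constitutive β subunits were 0.11, 0.12 and 0.19.

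The 6 ATPases of the 19S base had medians below 0 on each day, at -0.16, -0.27 and -0.25. None passed 1.5-fold by its representative probe set. Psmc1, Psmc2, Psmc3, Psmc5 and Psmc6 were highest in the control array, as were 12 of the 38 members above the floor throughout and 1274 of 5100 such genes. Psmc1 had the lowest log2 change of the ATPases at day 1, -0.45, with intensities of 3124, 2285, 2400 and 2540. Psmc2 and Psmc5 were 1.41-fold and 1.42-fold below control at day 3. For Psmc3, which has 3 probe sets, the others were at 2307, 2005, 1519 and 1729, and at 556, 711, 345 and 456. Both fell past 1.5-fold at day 3, with log2 changes of -0.60 and -0.69, where the representative had -0.10. The representative and the dimmest probe set are marked as shared by a sequence family, so the size of the Psmc3 change is uncertain.

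The other 19S subunits include the scaffolds, the ubiquitin receptor Psmd4 and the deubiquitinase Psmd14. None of the 10 measured above the floor passed 1.5-fold on any day. At day 1, 9 of the 10 had a log2 change above 0, with a median of 0.19, and at days 3 and 6 the medians were 0.07 and -0.02. The highest log2 change at day 1 was 0.35, in Psmd3, with intensities of 2506, 3188, 2622 and 2767. The lowest was in Psmd12, at 1712, 1710, 1355 and 1538, by a probe set marked as shared by a sequence family. Psmd4 was at 5516, 6968, 5906 and 5838 and Psmd14 at 3473, 4109, 3418 and 3519. Psmd11, which promotes assembly of the full 26S proteasome, was at 4792, 5025, 3981 and 4355, though its second probe set rose from 1409 to 2344 at day 1. Psmd1, Psmd6, Psmd7, Psmd8 and Psmd13 stayed within 1.27-fold of control. The assembly chaperones of the ATPase ring were also within 1.5-fold: Psmd5 was at 1712, 1576, 2220 and 2072, Psmd10 at 350, 370, 335 and 404, and Psmd9 between 1296 and 1762.

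**Figure D3:**
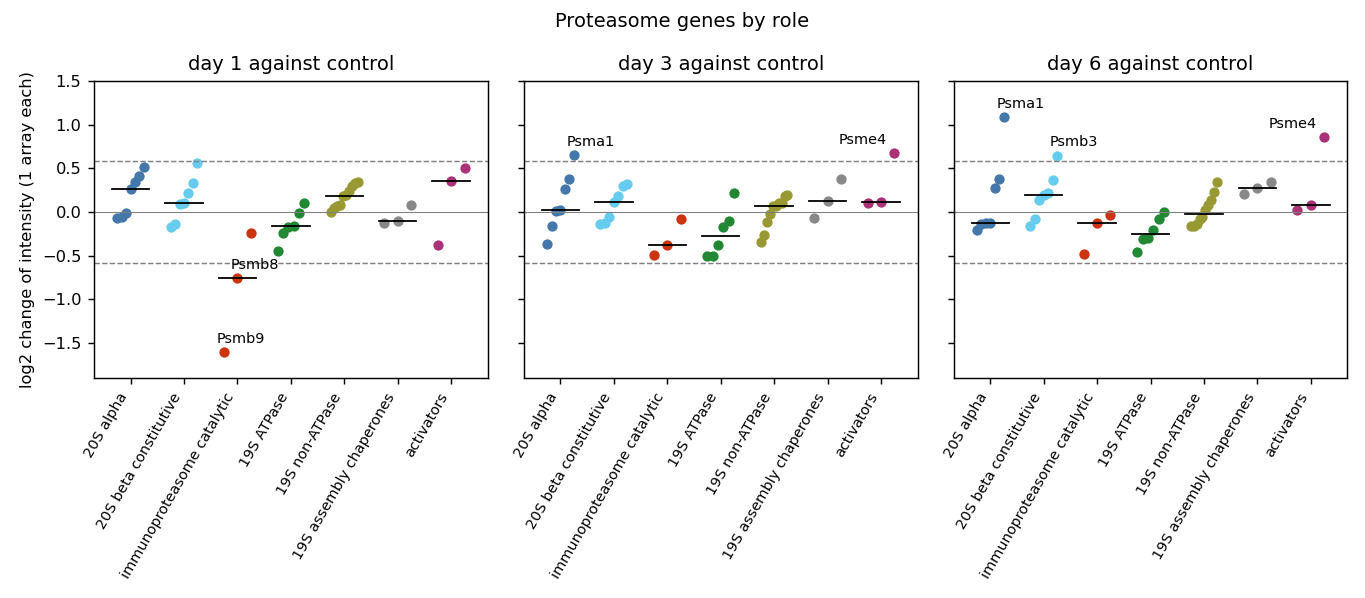
Log2 change of intensity against control at days 1, 3 and 6 for the 39 proteasome genes above the floor, by role; each point is 1 gene on 1 pair of arrays, black bars are group medians and dashed lines 1.5-fold. Psmb9 and Psmb8 lie below the lower line at day 1, and Psma1, Psme4 and, at day 6, Psmb3 above the upper one.

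Of the 2 genes that share only the start of the name, Psmc3ip, a meiotic recombination factor, was below the floor on all 4 arrays. Psme3ip1, whose product binds PA28γ, was at 1585, 1487, 1261 and 1255.

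Other genes of the ubiquitin and proteasome pathway were taken from lists, described by counts past 1.5-fold. These stand beside the shares of all genes that rose and fell, 16.0% and 18.4% at day 1, 9.94% and 10.6% at day 3 and 7.93% and 7.83% at day 6, and beside a median log2 change of -0.02 over all genes at day 1. Of 4 ubiquitin genes listed, 0 had a probe set with a single symbol, so ubiquitin itself was not followed. Of 9 assembly factors and partners of the proteasome above the floor, 0 rose and 1 fell at day 1. That was Psmg1, an assembly chaperone of the α ring, at 1368, 903, 1088 and 1218. The maturation factor Pomp was at 6187, 4816, 5803 and 5042. Of 22 genes for ubiquitin-activating and ubiquitin-conjugating enzymes, 0 rose and 4 fell at day 1, a share of fallen genes near that of all genes, and the list's median was -0.15. The 4 were the conjugating enzymes Ube2h, at 1316 and 610 on the control and day 1 arrays, Ube2r2 at 8176 and 4370, Ube2d2a at 1257 and 717, and Ube2e3 at 279 and 186. By day 6, 1 was higher and 1 lower. Of 11 shuttle receptors and cofactors of the p97 ATPase, 1 rose at day 1: the ubiquitin-binding autophagy receptor Sqstm1, from 6049 to 10487.

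Regulators of proteasome genes had a median log2 change of 0.79 at day 1. Nfe2l1, the transcription factor that raises proteasome gene expression when proteasome activity is short, was at 6794, 4281, 5949 and 6309, and fell 1.59-fold at day 1. The related Nfe2l2, which drives the antioxidant response, was at 2192, 3930, 2896 and 3014, 1.79-fold higher at day 1. Their small Maf partners also rose, Mafg 1.66-fold, Mafk 1.52-fold and Maff at least 1.82-fold, and so did Bach1, a repressor at the same elements, from 999 to 2721. In all, 5 of 6 regulators above the floor rose and 1 fell at day 1, against 16.0% and 18.4% of all genes. At day 3 and day 6, 0 passed 1.5-fold. Maff was above the floor on the day 1 array alone, at 315. The direction of its change at day 1, and its lack of change later, were thus fixed by the floor. The members that hold the antioxidant response core in their promoters, Psmb5, Psmb6, Psmc6, Psmd9, Psmd12 and Psme4, were within 1.5-fold of control at day 1. So were 37 of all 39 members, so this does not set them apart. A link between the regulators and the core was not tested.

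Heat shock proteins of proteotoxic stress had 3 of 11 higher and 1 lower at day 1, against 16.0% and 18.4% of all genes. The chaperone Hsph1 went from 1541 to 5413, Bag3, a cochaperone that routes clients to autophagy, from 1336 to 3742, and Hsp90aa1 from 8603 to 13870, while Dnaja1 went from 5963 to 3035. The inducible Hsp70 gene Hspa1b was at 1009, 724, 659 and 898. At day 3, 0 were higher and 4 lower, against 9.94% and 10.6% of all genes.

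Genes of MHC class I processing, the pathway the immunoproteasome serves, had a median log2 change of -0.44 at day 1. Of the 8 above the floor, 1 fell and 1 rose, where 18.4% of all genes fell and 16.0% rose. Tap2, a subunit of the peptide transporter, was at 811, 445, 635 and 490, and fell 1.83-fold at day 1. The disulfide isomerase Pdia3, also a general chaperone of the endoplasmic reticulum, rose from 4203 to 8284. The heavy chain H2-K1, by a probe set that related heavy chain genes may share, was at 31108, 20866, 32919 and 30482, and the light chain B2m at 31188, 23378, 27584 and 29938. The medians at days 3 and 6 were -0.20 and -0.12. Of 11 interferon-linked genes above the floor, 2 rose and 4 fell at day 1, beside the same shares. Their median log2 change at day 1 was 0.19. Cxcl9, a chemokine induced by interferon-γ, was at 1295 in control and below the floor at day 1, at least 7.48-fold lower, and the guanylate-binding proteins Gbp3 and Gbp2 fell 3.67-fold and 2.21-fold. Ifngr2, a chain of the interferon-γ receptor, went from 246 to 597, and the other chain, Ifngr1, fell from 2481 to 1285. Jak2 was the other gene that rose, from 433 to 870. The interferon-responsive factor Irf1 was at 1639, 1868, 1229 and 1590.

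Psmb9 lies head to head with Tap1, the other subunit of the peptide transporter. Their starts in RefSeq are separated by 225 bases and their promoter windows overlap by 275 bases. Tap1 was at 1099, 885, 1050 and 1070, so its log2 change at day 1 was -0.31 where that of Psmb9 was -1.60. The difference of -1.29 is larger than its error of 0.49.

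**Figure D4:**
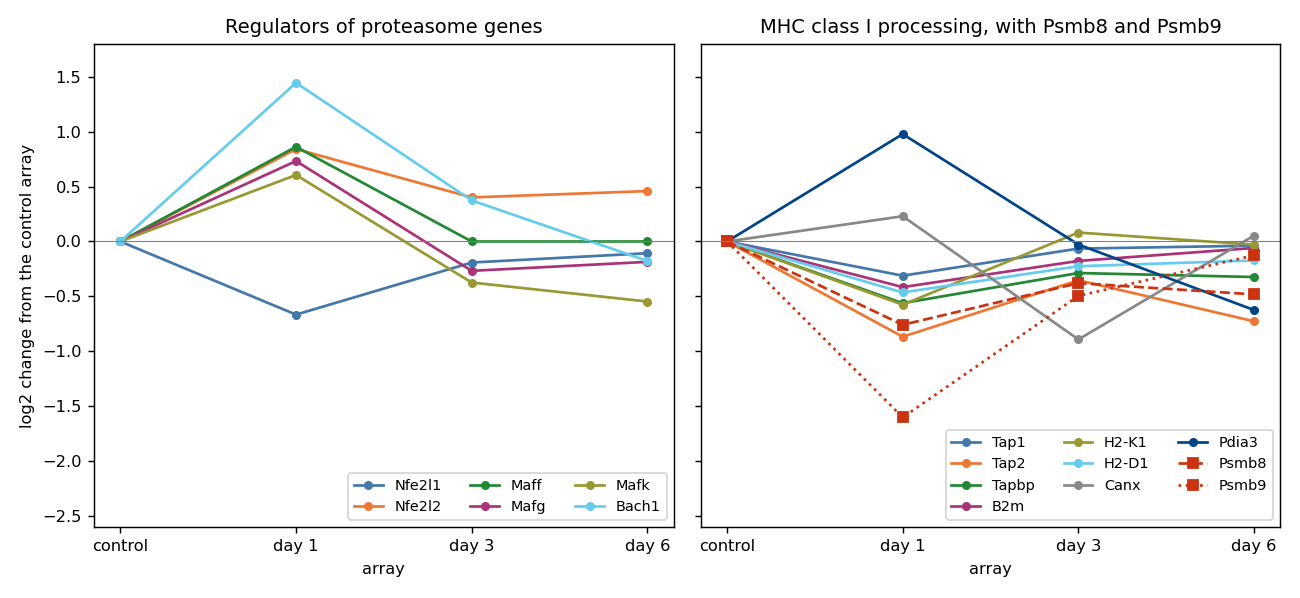
Log2 change of intensity from the control array at days 1, 3 and 6 for the regulators of proteasome genes above the floor (left) and the MHC class I processing genes above the floor with Psmb8 and Psmb9 (right, red squares), 1 array per point; values under the floor were raised to it. At day 1, 5 regulators lie above 0.58 and Nfe2l1 at -0.67, and Psmb9 lies under each of the MHC class I genes.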

How the data were processed

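The deposited intensities are linear values of 12488 probe sets on 4 arrays; how the authors made and normalized them was not given in the sources used here. Deposited medians were 314 to 314.5, and 12.2% to 12.4% of values per array were at or below 0. Each array was scaled to 1 common trimmed mean, taken from the 2nd to the 98th percentile (factors 0.999 to 1.001). Values were then floored at the 40th percentile and put on the log2 scale, with Python 3.11.15, numpy 2.4.6 and pandas 2.3.3. No test was run, and 66 control probe sets were left out. Gene symbols are those of the platform annotation; those of all 40 members matched RefSeq by Entrez identifier. The error of a log2 change is the scaled median absolute difference between the pair of probe sets of a gene, divided by the square root of 2, where both were above the floor on all arrays. The members and lists were chosen with earlier results of these data known. Values on each array are printed for inducible, catalytic and activator members, for the extremes of each other role at day 1, for members past 2-fold and, chosen after their values were seen, for Psmb3, Psmd4, Psmd14, Psmd11, Psmc4, Psmd2, Pomp, H2-K1, B2m, Lcn5, Ifngr1, S100a8, S100a9, Elane and Camp; from each list up to 4 genes past 1.5-fold at day 1 and some fixed genes are named. Jak2, Ighm, Ly6g, Cxcr2, Ltf, Thy1, Cd4, Klrd1, Acta1 and Myh4 were also named after their values were seen. Alternatives were the floor, the scaling, the probe sets and a pseudocount. The method was tested on simulated data. Changes of 2-fold or more were planted in bright probe sets, with less noise than the error of a log2 change. The simulation thus did not test changes near 1.5-fold or dim genes.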

Additional observations from a re-analysis of the deposited data

Results flagged for a closer look

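Probe sets that do not represent a gene above, or that carry several symbols, were set against control, and 5 values lay above it by more than the error of a log2 change; others lay as far below, such as -0.69 for Psmc3 at day 3, -0.50 for Psmd11 at day 3 and -0.41 for Psmb1 at day 1. The second probe set of Psmd11 rose at day 1 with a log2 change of 0.73, from 1409 to 2344, where its representative had 0.07. The third had 0.44 at day 6, from 666 to 906, where the representative had -0.14. A dim Psmc3 probe set had 0.35 at day 1, where the representative had -0.17. The probe set of Psme2 and Psme2b had 0.40 at day 3 and 0.35 at day 6, after -0.63 at day 1.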

How the results depend on the processing

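Over 6 alternatives, 456 of 468 recomputed values kept within the error of a log2 change or, for counts, within 1.5 times, and 12 moved. Part of this agreement was fixed in advance. The scaling factors were 0.999 to 1.001, and only 7 of the 40 members have more than 1 probe set. No value past 1.5-fold changed sign. Psmb9 and Psmb8 were the members that fell at day 1 under every alternative run. The floor at the 25th percentile added 1 lower gene at day 6 against control and 1 from day 3 to day 6 (Psmc4), 1 from day 1 to day 3 (Psmd2) and 2 from day 1 to day 6 (both), all dim. A pseudocount equal to the floor added 1, Psmc4, from day 3 to day 6, and the mean over all probe sets added 1, Psmd11, from day 1 to day 3. With the mean over all probe sets, Psmb8 minus Psmb5 was -0.85 at day 1 and -0.37 at day 3, as the dimmer Psmb5 probe set went the other way; Psmb5 itself turned from above to below 0, at -0.015 at day 3 and -0.034 at day 6. The median of the constitutive β subunits at day 3 turned to -0.015, and that of the other 19S subunits at day 6 to 0.051. With the floor at the 60th percentile, Psmb9 minus Psmb6 was -1.07 at day 1, and Psmb9 itself -1.23, since its day 1 value lay below that floor. No paired analysis was possible because each group has 1 array. Changes of dim genes such as Psmc4 and Psmd2 are limited by signal over background, and differences between mice were not measured.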
